A study of Mus musculus with 2 samples.

Results

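Innate pattern sensors and the proteins that carry their signal were followed as a set of 40 named genes in mouse GMP, the granulocyte-monocyte progenitors from which marrow makes neutrophils and monocytes. The set holds Toll-like, NOD-like, RIG-I-like and C-type lectin sensors with their adaptors, kinases and caspases, and its members were listed by gene symbol, with earlier results of these data known. All 40 symbols matched a row of the gene tables, which hold 69691 rows, 21474 of them protein-coding genes. By annotation 39 members are protein-coding, and Clec7a is classed as a polymorphic pseudogene.

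The data are total RNA-seq of primary GMP from adult male C57BL/6J mice aged 5 to 6 weeks, with no allele or treatment named. Each library was made from 100 cells with spike-in RNA added, and the only group holds 2 libraries, labelled as biological replicates 1 and 2. The labels give both the same donor identifier and do not say whether the cells came from separate animals, so the spread between the libraries may be technical. With 1 group there was no contrast to test, and the values below are levels, with the difference between the libraries as their only error.

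Pattern sensors are receptors encoded in the germline that bind molecules shared by many microbes. Toll-like receptors, or TLRs, sit in the plasma membrane or in endosomes and signal through adaptors with a TIR domain, IRAK kinases and the ubiquitin ligase TRAF6 to NF-kB. Inflammasomes are cytosolic complexes in which a sensor activates caspase-1, often through the adaptor ASC, and caspase-1 then cleaves the precursors of interleukin 1 beta and interleukin 18. Myeloid cells, the progeny of these progenitors, are among the main users of both systems.

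The expected counts, which are estimated reads per gene, summed to 40509954 in replicate 1 and 35675702 in replicate 2. The members took 28560 of these counts in replicate 1, a share of 0.0705% (95% Wilson interval 0.0697 to 0.0713%). In replicate 2 they took 24945, a share of 0.0699% (0.0691 to 0.0708%). The libraries carry no stated molecular identifiers, so these intervals and all count intervals below cover counting error only. All 12 markers of the progenitor, such as Mpo, Elane, Prtn3 and Kit, averaged at least 35.3 TPM, so the markers of the labelled cell type were all present. TPM, a relative abundance, is scaled by transcript length and so can be compared between genes. Of the other cell types looked for, macrophage markers summed to 6.48 TPM in replicate 1 and 8.07 in replicate 2. Most of this was Adgre1 (4.06 and 3.11 TPM) and Vcam1 (2.00 and 3.08), while C1qc, Marco and Cd5l had 0 counts in both. Dendritic cell markers summed to 3.52 and 1.86 TPM, mostly H2-Aa (3.27 and 1.14 TPM), with Siglech and Clec9a at 0. The 4 B cell markers summed to 0.01 and 0 TPM. Erythroid and megakaryocyte markers summed to 0.27 and 2.30 TPM, and Cd3e, Cd3g and Cd8a had 0 counts, while Nkg7, from the same T and natural killer list, was at 273.24 and 260.28 TPM. Markers of maturing neutrophils summed to 722.76 TPM in replicate 1 and 315.94 in replicate 2, with 9 of 10 higher in replicate 1. S100a8 and S100a9 held most of these sums. Gaps were wider in Ngp (44.66 and 0.88 TPM), Camp (24.44 and 1.99), Ltf (3.71 and 0.01) and Retnlg (12.39 and 0.08). Cxcr2 was nearly level (4.14 and 3.77), and Mmp8 was higher in replicate 2 (1.07 and 2.24). Basophil and mast cell markers summed to 130.23 and 84.69 TPM, with 4 of 4 higher in replicate 1 and the widest gap in Fcer1a (7.91 and 0.06 TPM).

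The progenitors held RNA of most of the set, and the signalling and effector members stood higher than most of the sensors. Of the 40 members, 30 (75%) had at least 1 TPM in both libraries, against 45.6% of all protein-coding genes. At 10 TPM or more on average there were 13 members (32.5%), close to the 28.4% of all protein-coding genes. Only Tlr11 had 0 counts in both libraries, 1 of 40 (2.5%) against 42.5% of all protein-coding genes. The median over the members was 5.46 TPM (6.19 in replicate 1 and 4.31 in replicate 2), beside 0.55 TPM for all protein-coding genes. The 25 sensors and co-receptors had a median of 3.11 TPM (range 0 to 30.5), and 15 of 25 reached 1 TPM in both libraries. The other 15 members, the adaptors, kinases and caspases classed as downstream, had a median of 12.7 TPM (range 3.58 to 53.4), and 15 of 15 reached 1 TPM in both. Casp4 is counted among them, although its product itself binds lipopolysaccharide. In a bulk library of 100 cells, few cells with much RNA of a gene and many cells with little cannot be told apart.

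**Figure D1:**
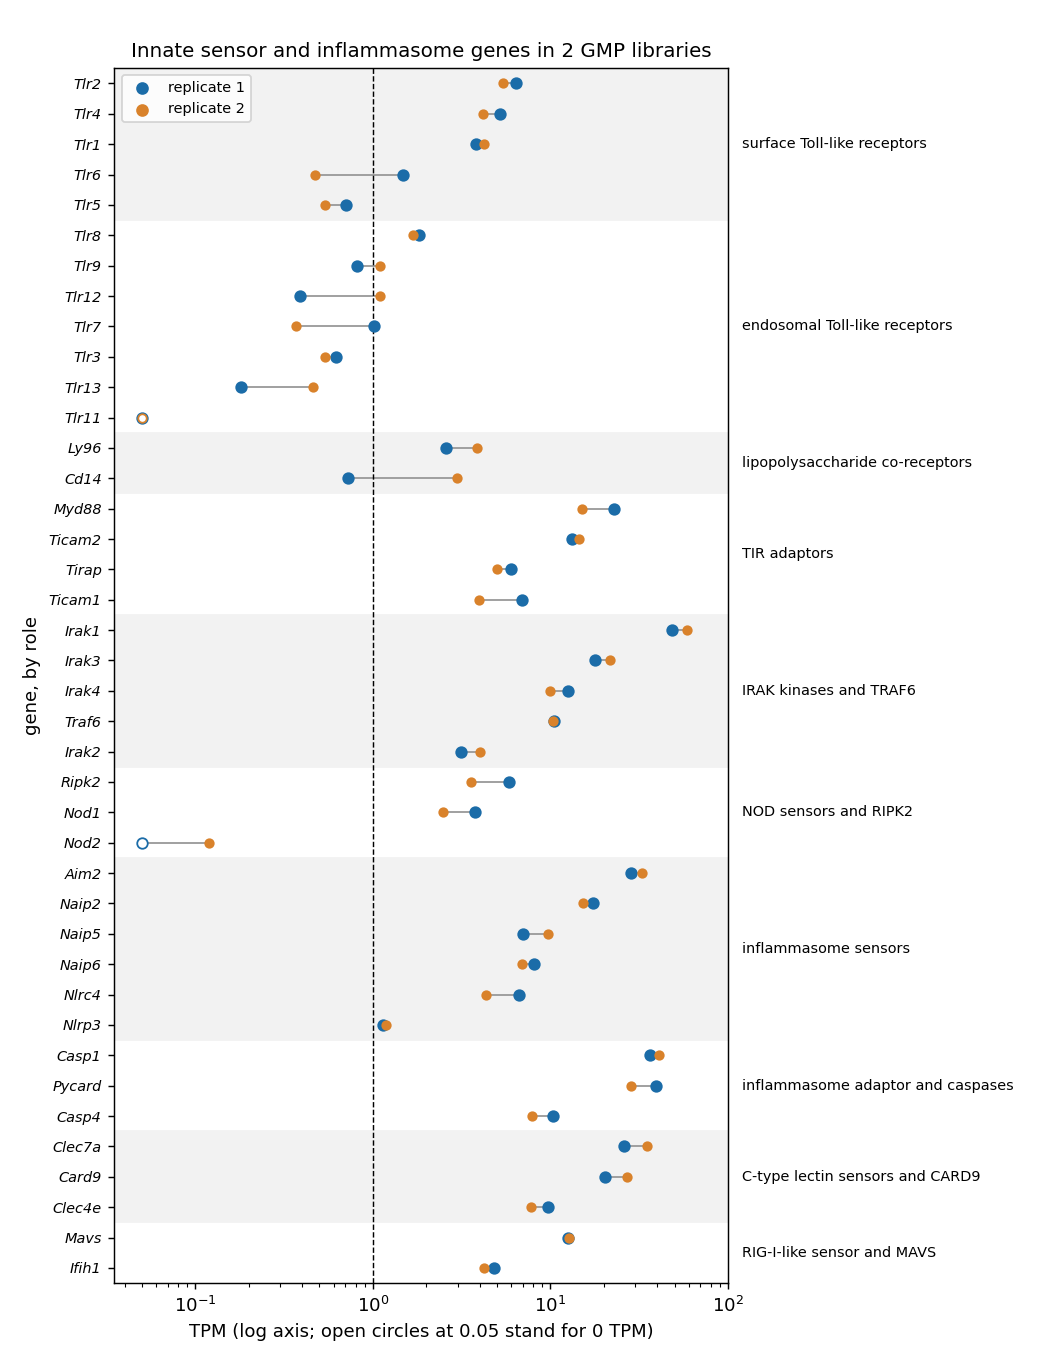
TPM of the 40 members in replicate 1 and replicate 2, by role, on a logarithmic axis, each point being 1 library. Irak1, Casp1, Pycard, Aim2 and Clec7a lie at the top of the range, most Toll-like receptors lie around or below 1 TPM, and open circles mark values of 0, as for Tlr11.

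Cell surface Toll-like receptors were present at low levels, led by Tlr2. Tlr2, whose product pairs with TLR1 or TLR6 to bind bacterial lipoproteins, was at 6.42 TPM (538 counts) in replicate 1 and 5.37 TPM (402 counts) in replicate 2. Tlr4, the lipopolysaccharide receptor, was at 5.21 and 4.17 TPM, from 358 and 428 counts. Tlr1 was at 3.79 and 4.20 TPM, from 277 and 275 counts. None of these 3 receptors was over 2-fold apart between the libraries. Tlr6 was at 1.47 TPM (106 counts) in replicate 1 and 0.47 TPM (30.1 counts) in replicate 2. In CPM, the count as a share of all counts in the library, replicate 2 held 0.321 times as much Tlr6 as replicate 1 (exact 95% interval 0.207 to 0.486). Tlr5, the flagellin receptor, was below 1 TPM in both libraries, at 0.71 and 0.54. The TPM of Tlr1 was thus 2.58 times that of Tlr6 in replicate 1 and 8.94 times in replicate 2.

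Tlr1 and Tlr6 lie 18467 bases apart on chromosome 5, and parts of their sequence are the same, which bears on how reads are split between them. Their coding sequences matched at 77.0% of aligned bases. Of the 50-base windows in Tlr1 transcripts 16.6% also occur in Tlr6, and 12.6% of Tlr6 windows are shared with another gene. The longest identical coding stretch is 229 bases, and it is shown because a read inside it could come from either gene (mm10, minus strand; Tlr1 chr5:64925537-64925765, Tlr6 chr5:64953828-64954056).
Tlr1 and Tlr6: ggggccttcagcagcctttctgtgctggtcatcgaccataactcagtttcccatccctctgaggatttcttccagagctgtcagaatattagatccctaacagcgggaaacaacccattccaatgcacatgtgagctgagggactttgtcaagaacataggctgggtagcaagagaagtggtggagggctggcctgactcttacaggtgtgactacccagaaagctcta
The posterior standard deviation of the count, deposited for each gene, was 2.95 counts in replicate 1 and 2.33 in replicate 2 for both genes. The part of shared reads in the difference of Tlr6 between the libraries was not tested.

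The lipopolysaccharide co-receptors were low and uneven. Ly96 encodes MD-2, the part of the receptor complex that binds lipid A, and was at 2.59 and 3.86 TPM, from only 33 and 48 counts. Cd14, which hands lipopolysaccharide to that complex, was at 0.72 TPM (30 counts) in replicate 1 and 2.99 TPM (111 counts) in replicate 2. In CPM, Cd14 was 4.20 times as high in replicate 2 (2.79 to 6.52), and it had the widest gap in TPM of the 31 members at 1 TPM or more on average. Ly86 encodes MD-1, the relative of MD-2 that partners RP105, and it stood at 106.36 and 112.22 TPM, 41.1 and 29.1 times Ly96. Cd180, which encodes RP105 itself, was at 17.96 and 15.43 TPM, 3.45 and 3.70 times Tlr4.

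Endosomal Toll-like receptors were the lowest group of the set. Of 7, only Tlr8 had at least 1 TPM in both libraries, and the 7 together summed to 4.82 TPM in replicate 1 and 5.24 in replicate 2. Tlr8, known in humans as a receptor of single-stranded RNA, was at 1.81 and 1.68 TPM. Its counts were 174 and 31, so its CPM in replicate 2 was 0.202 times that in replicate 1 (0.133 to 0.298) while its TPM was nearly level. In replicate 1 all 174 counts lay on the transcript Tlr8-202 of 3431 bases. In replicate 2 the 485-base Tlr8-203 took 12.45 counts and 85.99% of the gene's TPM, and the effective length given for the gene was 3271 bases in replicate 1 and 703 in replicate 2. The near-equal TPM thus goes with unequal counts and unequal effective lengths.

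The other 6 endosomal receptors each had a mean under 1 TPM. Tlr7, a sensor of single-stranded RNA, measured 1.01 and 0.37 TPM in the respective replicates, and its CPM ratio was 0.406 (0.267 to 0.602). Tlr9, the sensor of unmethylated CpG DNA, was at 0.81 and 1.10 TPM, with a CPM ratio of 1.38 (1.01 to 1.88). Tlr3, the sensor of double-stranded RNA, was at 0.62 and 0.54 TPM, with a ratio of 0.971 (0.674 to 1.39). Tlr7 was thus higher in replicate 1, while the interval for Tlr3 held 1 and that for Tlr9 came close to it. Tlr12, whose product binds profilin of protozoan parasites together with TLR11, was at 0.39 and 1.09 TPM, with a CPM ratio of 2.79 (1.86 to 4.26). Tlr13, a sensor of bacterial ribosomal RNA, was at 0.18 and 0.46 TPM, with a CPM ratio of 2.54 (1.49 to 4.48). Its deposited credibility interval in replicate 1 ran from 0.128 to 14.3 TPM. Tlr11 had 0 counts, and with a floor of 3 counts its level can be no more than 0.0741 CPM in replicate 1 or 0.0841 in replicate 2. Tlr8 and Tlr7 lie 40599 bases apart on the X chromosome, and both had fewer counts in replicate 2. Their coding sequences match at 59.2% of aligned bases and share no 50-base window.

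The machinery that folds and moves Toll-like receptors was far more abundant than the receptors. Hsp90b1, the chaperone gp96 that folds them, was at 329.70 and 311.18 TPM. Unc93b1, which escorts the endosomal receptors from the endoplasmic reticulum, was at 71.40 and 86.39 TPM. The 12 receptors summed to 22.42 and 19.99 TPM, less than Unc93b1 alone in either library. Lbp, the lipopolysaccharide-binding protein, was at 66.60 and 40.39 TPM. In the list of 10 folding, trafficking and accessory genes, 8 reached 1 TPM in both libraries, with a median of 26.3 TPM, and Cd36 had 0 counts in both.

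All 4 TIR adaptors were expressed. Myd88, the adaptor shared by nearly all Toll-like receptors, was the highest at 22.77 TPM (1219 counts) in replicate 1 and 14.98 TPM (708 counts) in replicate 2. Ticam2, which encodes TRAM and links TLR4 to TRIF, was at 13.28 and 14.55 TPM, from 834 and 801 counts. Ticam1, which encodes TRIF itself, was at 6.92 and 3.96 TPM, from 576 and 294 counts. Myd88 and Ticam1 were lower in replicate 2, with CPM ratios of 0.660 (0.60 to 0.724) and 0.580 (0.502 to 0.668). Their ratio to each other moved less, since Myd88 stood at 3.29 times Ticam1 in replicate 1 and 3.78 times in replicate 2. Tirap, which brings MyD88 to TLR2 and TLR4, was at 5.96 and 4.98 TPM, from 460 and 560 counts. For Tirap and Tlr4 the direction depends on the unit: the CPM ratios were 1.38 (1.22 to 1.57) and 1.36 (1.18 to 1.57), higher in replicate 2, while TPM was lower there. In Tlr4, 34.2 counts on the 646-base transcript Tlr4-204 made up 46.0% of the gene's TPM in replicate 1 and none in replicate 2.

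Several of these genes overlap another expressed gene. Ticam2 shares its strand and 13.7% of its 50-base windows with Tmed7 (47.3 TPM on average), and reads of the shared stretch fit both genes. Myd88 overlaps Acaa1a, Tirap overlaps Srpr, Irak3 overlaps Tmbim4 and Irak4 overlaps Twf1, each on the opposite strand, and the partners stood at 15.5 to 45.1 TPM. Whether counting used strand is not given in the sources used here, so reads of these members and their partners may not be told apart. Ripk2 overlaps the small RNA gene Gm22690 on its own strand, which was at 0 and 8.06 TPM.

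The IRAK kinases and TRAF6 held the highest single value of the set. Irak1, the kinase that is recruited and modified at the receptor complex, was at 48.13 TPM (4176 counts) in replicate 1 and 58.62 TPM (4321 counts) in replicate 2. Its mean of 53.4 ± 7.42 TPM (SD, n = 2; mm10, chrX:74013914-74023918) lay at percentile 93.9 of protein-coding genes. Irak4, the kinase upstream of IRAK1, was at 12.57 and 9.95 TPM, from 879 and 583 counts, so that Irak1 stood at 3.83 and 5.89 times its level. Irak3 encodes IRAK-M, which restrains the pathway, and was at 17.87 and 21.68 TPM, from 1444 and 1387 counts. Irak2, a kinase of the same complex, was at 3.13 and 4.03 TPM, from 277 and 306 counts. The inhibitory member thus stood at 5.71 and 5.38 times Irak2 in the respective libraries. Traf6 was at 10.46 and 10.37 TPM, from 1695 and 1495 counts, and its CPM ratio of 1.00 (0.934 to 1.07) was level.

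NOD sensors were low. Nod1, a receptor for a peptidoglycan fragment common in Gram-negative bacteria, was at 3.74 and 2.48 TPM, from 447 and 260 counts. Nod2, the receptor for muramyl dipeptide, had 0 counts in replicate 1 and 14 in replicate 2, or 0.12 TPM. Ripk2, the kinase that both NOD proteins signal through, was at 5.85 and 3.55 TPM, from 440 and 236 counts. Nod1 and Ripk2 were both lower in replicate 2, with CPM ratios of 0.660 and 0.609.

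Of the RIG-I-like pathway, Ifih1, the long double-stranded RNA sensor MDA5, was at 4.80 and 4.25 TPM, from 554 and 456 counts. Mavs, the mitochondrial adaptor of MDA5 and RIG-I, was at 12.51 and 12.80 TPM, from 1040 and 922 counts, 2.61 and 3.01 times Ifih1. Their CPM ratios, 0.935 (0.824 to 1.06) and 1.01 (0.920 to 1.10), had intervals that held 1.

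Every inflammasome sensor in the set had at least 1 TPM in both libraries, and Aim2 had the highest TPM of the 6. Aim2, which binds cytosolic double-stranded DNA, was at 28.38 TPM (865 counts) in replicate 1 and 32.63 TPM (815 counts) in replicate 2. Its mean of 30.5 ± 3.01 TPM (SD, n = 2; mm10, chr1:173350879-173466040) lay at percentile 88.4. In replicate 2, short transcripts with few counts held much of this level: Aim2-203 (326 bases, 46.5 counts) held 31.8% of the gene's TPM and Aim2-201 (372 bases, 44 counts) held 23.8%. In CPM, which is not divided by length, Naip2 stood above Aim2, at 58.8 and 51.6 against 21.4 and 22.8. Nlrp3, the sensor that responds to many forms of cell damage, was the lowest of the 6 at 1.14 and 1.18 TPM, from 84 and 119 counts. In replicate 1, 6.64 counts on the 676-base Nlrp3-203 held 38.6% of its TPM, and Nlrp3-201 was at 0.70 TPM. Its deposited credibility interval there ran from 0.758 to 1.62 TPM, so its place above 1 TPM is uncertain. The CPM ratio of Nlrp3 was 1.61 (1.21 to 2.15) while its TPM was nearly level. In TPM, Aim2 stood at 24.9 and 27.7 times Nlrp3. Nlrc4, which assembles with NAIP proteins, was at 6.62 and 4.36 TPM, from 715 and 421 counts.

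The NAIP proteins bind bacterial flagellin or parts of the type III secretion apparatus and hand the signal to NLRC4. Naip2 was at 17.38 and 15.29 TPM, from 2381 and 1841 counts. Naip5 was at 6.97 and 9.63 TPM, from 1033 and 1274 counts. Naip6 was at 8.07 and 6.88 TPM, from 1560 and 1195 counts. Naip2 was the highest in both libraries, while Naip6 was above Naip5 in replicate 1 and below it in replicate 2. The relative Naip1 had 0 counts in both libraries.

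The 3 genes lie side by side on chromosome 13, Naip2 and Naip5 9646 bases apart and Naip5 and Naip6 34797 bases apart. Coding sequences of Naip5 and Naip6 matched at 96.96% of aligned bases, those of Naip2 and Naip5 at 89.99% and those of Naip2 and Naip6 at 89.8%. Windows of 50 bases found in another gene made up 36.8% of Naip5, 21.5% of Naip6 and 19.1% of Naip2, the highest 3 shares in the set. The start of the coding sequence shows how the paralogs differ, with capitals at the positions where Naip2 differs from the other 2 (mm10, minus strand; Naip2 chr13:100189339-100189398, Naip5 chr13:100246140-100246199, Naip6 chr13:100316492-100316551).
Naip2: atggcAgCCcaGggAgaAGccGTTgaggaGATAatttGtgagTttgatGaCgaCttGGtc
Naip5: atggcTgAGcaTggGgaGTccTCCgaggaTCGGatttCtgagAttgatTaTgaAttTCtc
Naip6: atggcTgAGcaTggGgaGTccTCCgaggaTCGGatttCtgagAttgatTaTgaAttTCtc
In these 60 bases Naip2 differs at 21 positions, and Naip5 and Naip6 are identical. Their longest common coding stretch is 229 bases (mm10, minus strand; Naip5 chr13:100222161-100222389, Naip6 chr13:100299448-100299676), shown because reads within it cannot be assigned to either gene.
Naip5 and Naip6: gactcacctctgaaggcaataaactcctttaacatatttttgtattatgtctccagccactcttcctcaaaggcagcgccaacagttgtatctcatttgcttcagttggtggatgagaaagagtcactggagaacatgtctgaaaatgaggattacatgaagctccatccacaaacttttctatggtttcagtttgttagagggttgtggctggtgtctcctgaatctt
The deposited standard deviations of the counts were small beside the counts, at 4.02 and 5.25 for Naip5 and 4.24 and 5.74 for Naip6. Whether the sharing of reads bears on their order was not tested.

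The adaptor and caspases of the inflammasome were among the most abundant members. Casp1, the caspase that matures interleukin 1 beta and interleukin 18, measured 36.37 and 40.67 TPM in the respective replicates, with 1428 counts in each. Its mean of 38.5 ± 3.04 TPM (SD, n = 2; mm10, chr9:5298517-5307265) lay at percentile 90.9. Pycard, which encodes the adaptor ASC, was at 39.19 and 28.53 TPM, from 1433 and 933 counts, and its CPM ratio was 0.739. Casp4, the mouse caspase-11 gene whose product binds lipopolysaccharide in the cytosol, was at 10.33 and 7.88 TPM, from 398 and 228 counts. Casp1 stood at 3.52 and 5.16 times Casp4, a neighbour only 1562 bases away. Their coding sequences match at 65.4% of aligned bases and share no 50-base window.

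The cytokines that caspase-1 acts on were scarce beside it. Il1b had 0 counts in both libraries, and Il18 measured 2.14 and 0.63 TPM in the respective replicates. Il1a, also of the interleukin 1 family, had 0 counts in both. The highest of the 6 interleukin 1 family genes was Il1rap, a receptor chain, at 6.09 and 5.79 TPM, and Il1r1 was at 1.49 and 1.46. In this list 2 of 6 reached 1 TPM in both libraries, with a median of 1.20 TPM. Of 16 other NLR, pyrin and pyroptosis genes, 10 did so, with a median of 3.68 TPM. The highest were Casp8, the apoptosis initiator, at 57.11 and 51.18 TPM, Txnip, a thioredoxin inhibitor, at 50.89 and 38.55, and Pstpip1, a partner of pyrin, at 30.76 and 37.03. Mefv, which encodes pyrin, was at 19.73 and 17.83 TPM, and Gsdmd, the pore-forming target of caspase-1 and caspase-11, at 20.99 and 18.13. Nlrp6 had 0 counts in both libraries, as did Naip1.

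C-type lectin sensing was represented by all 3 of its members. Clec7a, which encodes the beta-glucan receptor Dectin-1, was at 25.92 TPM (1304 counts) in replicate 1 and 34.94 TPM (1117 counts) in replicate 2. Card9, the adaptor downstream of SYK in this pathway, was at 20.20 and 26.84 TPM, from 952 and 1112 counts. Clec4e, which encodes Mincle, a receptor of mycobacterial glycolipid, was at 9.75 and 7.77 TPM, from 486 and 428 counts. The mean of Clec7a, 30.4 ± 6.38 TPM (SD, n = 2), was near that of Aim2, and these had the highest mean TPM of the sensors. In CPM, Clec7a was at 32.2 and 31.3, below Naip2 and Naip6 (38.5 and 33.5), and its ratio of 0.973 (0.897 to 1.05) was level where its TPM was higher in replicate 2. Clec7a stood at 2.66 and 4.50 times Clec4e. Of 10 other genes of the family and its SYK pathway, 8 reached 1 TPM in both libraries, with a median of 23.5 TPM. Fcer1g, the signalling chain that Mincle uses, was at 171.56 and 157.17 TPM. Clec12a, an inhibitory lectin of myeloid cells, was at 156.49 and 161.46 TPM, 6.04 and 4.62 times Clec7a, and Clec5a was at 28.29 and 42.68. Clec4n, a neighbour of Clec4d and Clec4e on chromosome 6, had 0 counts in both libraries.

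The output genes of these pathways were low beside their upstream parts. Of 14 NF-kB, IKK and TAK1 genes, 13 had at least 1 TPM in both libraries, with a median of 18.3 TPM. Ube2v1, a ubiquitin-conjugating cofactor of TRAF6, was at 53.19 and 74.70 TPM, Tab2 of the TAK1 complex at 57.49 and 46.56, and Nfkb1 at 50.72 and 44.19. The exception was Relb, at 0 and 0.39 TPM. All 11 inhibitors and feedback genes reached 1 TPM in both, with a median of 5.58 TPM, led by Otulin at 35.53 and 26.46, Tnip1 at 13.23 and 23.52, and Nfkbib at 17.01 and 10.52. Of 12 genes of nucleic acid sensing and the interferon arm, 10 did so, with a median of 10.9 TPM, led by Irf3 at 27.26 and 33.11, Tmem173, which encodes STING, at 23.73 and 34.09, and Ikbke at 27.66 and 27.70. Of 12 inflammatory output genes, 2 did so, and the median was 0 TPM. The highest were Tnf at 2.82 and 5.87, Ccl3 at 3.09 and 2.63, and Il6 at 3.23 and 0.25, and Il12b, Cxcl1, Cxcl2, Ccl2, Ccl5, Ifnb1 and Nos2 had 0 counts in both libraries. Over the 91 genes of the 8 lists, 64 reached 1 TPM in both.

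**Figure D2:**
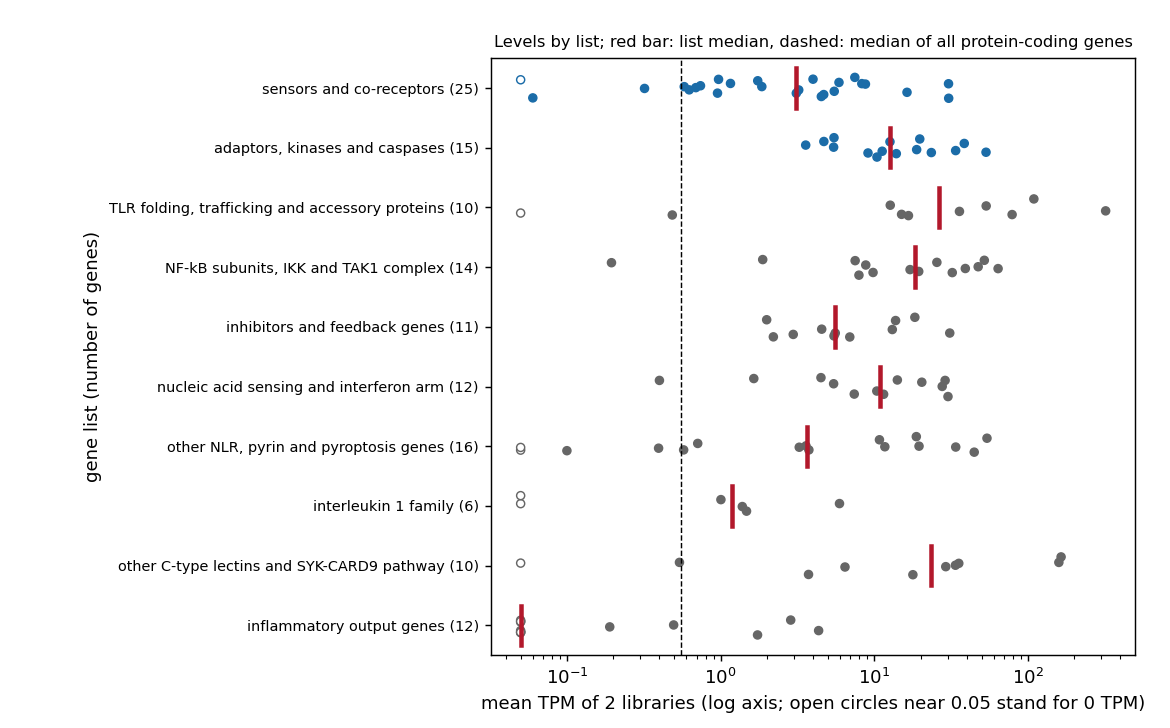
Mean TPM of each gene over the 2 libraries on a logarithmic axis, for the 25 sensors, the 15 downstream members and the 8 lists of partner genes. Each point is 1 gene, open circles stand for 0 TPM, bars mark list medians and the dashed line the median of all protein-coding genes, 0.55 TPM, and the list of output genes has the lowest median.

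Promoters of the members were searched for motifs, since members of one pathway stood at very different levels. Of the 40 members, 34 matched an entry of the RefSeq promoter table (GRCm38.p6), with 43 promoters of 300 bases that start 250 bases before the transcript start. There was no entry for Tlr4, Tlr7, Cd14, Ly96, Ticam2 and Ripk2. In all, 6 motifs were searched on both strands, and matches of different motifs overlapped in 1 member promoter. GAGGAAGT, a core that the myeloid factor PU.1 binds, was found in 5 member promoters (11.6%), against 3.20% of all 32851 promoters of the table. They belong to Aim2, Pycard, Tlr1, Tlr9 and Tlr11. An NF-kB form, written as GGG, 2 free bases, TT, 1 free base and CC, was found in 11.6% of the member promoters against 4.79%, in Casp4, Nlrp3, Tlr2 and Tlr3. Casp4 has overlapping promoters that hold the same matches and were counted separately, so by gene these are 4 of the 34 members. An interferon response form, GAAA followed after 2 free bases by GAAA, was found in 9.30% against 3.44%, in Ifih1, Myd88, Tlr6 and Tlr11. TTGCNNAAT, a C/EBP form, was found in 9.30% against 2.40%, in Irak3, Tlr3, Tlr6 and Tlr8. TATAAA (13.95% against 13.6%) and CCAAT (34.9% against 37.4%) were as frequent as in the whole table. These are matches of letters in few promoters, not binding sites, and none of them was measured here.

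Promoters with the GAGGAAGT letters are shown for 3 members, 2 of them among the highest in TPM and 1 with no counts, as the 250 bases before the RefSeq transcript start on the gene's strand. Capitals mark the match, 113 bases before the start in Aim2 (chr1:173420354-173420603, plus strand) and 44 bases before it in Pycard (chr7:127993868-127994117, minus strand), where it reads as the reverse complement ACTTCCTC. In Tlr11 (chr14:50357664-50357913, plus strand) capitals mark GAGGAAGT, 133 bases before the start, and the interferon response form GAAACTGAAA, 122 bases before it.
Aim2: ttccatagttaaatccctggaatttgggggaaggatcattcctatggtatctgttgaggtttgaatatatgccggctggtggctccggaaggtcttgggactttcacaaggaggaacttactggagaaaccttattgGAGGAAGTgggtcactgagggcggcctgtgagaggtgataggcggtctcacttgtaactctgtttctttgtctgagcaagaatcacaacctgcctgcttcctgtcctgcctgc
Pycard: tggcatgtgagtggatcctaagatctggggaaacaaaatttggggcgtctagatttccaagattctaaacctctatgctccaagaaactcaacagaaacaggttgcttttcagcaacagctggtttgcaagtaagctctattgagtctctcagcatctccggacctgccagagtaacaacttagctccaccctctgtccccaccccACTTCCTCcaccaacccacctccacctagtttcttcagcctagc
Tlr11: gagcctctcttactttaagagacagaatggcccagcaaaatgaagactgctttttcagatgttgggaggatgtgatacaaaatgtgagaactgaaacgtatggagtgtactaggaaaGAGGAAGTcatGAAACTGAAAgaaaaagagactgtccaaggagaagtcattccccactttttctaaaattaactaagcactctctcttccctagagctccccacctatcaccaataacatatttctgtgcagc
The same 8 letters stand before Aim2 at 30.5 TPM, Pycard at 33.9 TPM and Tlr11 at 0. They also occur in promoters of Tlr1, at 3.995 TPM on average, and Tlr9, at 0.955 TPM, which are not shown. The Aim2 promoter lies inside the annotated span of the gene, and which of its transcripts start there was not examined. Whether the letters bear on the levels was not tested.

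For some members the leading transcript differed between the libraries. The transcript tables hold 144 transcripts of the members, and of the 21 members at 5 TPM or more on average, 15 have more than 1. In 6 of these the leading transcript was not the same in both libraries. The share over all genes with more than 1 transcript was not computed, so this count is not read as particular to the members. For Irak1, Irak1-204 held 74.4% of the gene's TPM in replicate 1 and 20.5% in replicate 2, and Irak1-206 held 0% and 49.8%. For Aim2, Aim2-205 held 56.5% and 8.25%, while Aim2-203 held 4.47% and 31.8%. For Mavs, Mavs-202 held 64.5% and 20.8%, and Mavs-201 took the rest. In each of these 3 genes the gene's TPM moved far less than the shares of its transcripts did. For Card9, Card9-202 held 57.0% and 24.7%, while Card9-201 held 31.8% and 63.7%. For Clec7a, Clec7a-204 held 74.5% and 42.8%, and Clec7a-202 took the rest. For Naip6, Naip6-201 held 70.2% and 35.7%, and Naip6-202 took the rest. Clec4e kept its leading transcript, Clec4e-201, at 42.3% and 60.2%, with 26.8% and 18.1% on transcripts annotated as retaining an intron. Such transcripts also held part of the TPM of Irak1 (17.6% and 26.6%), Casp4 (0% and 31.2%), Irak4, Ticam2 and Myd88. With 2 libraries of 100 cells these shares cannot be taken as a property of the progenitors, and no interval on them was used.

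**Figure D3:**
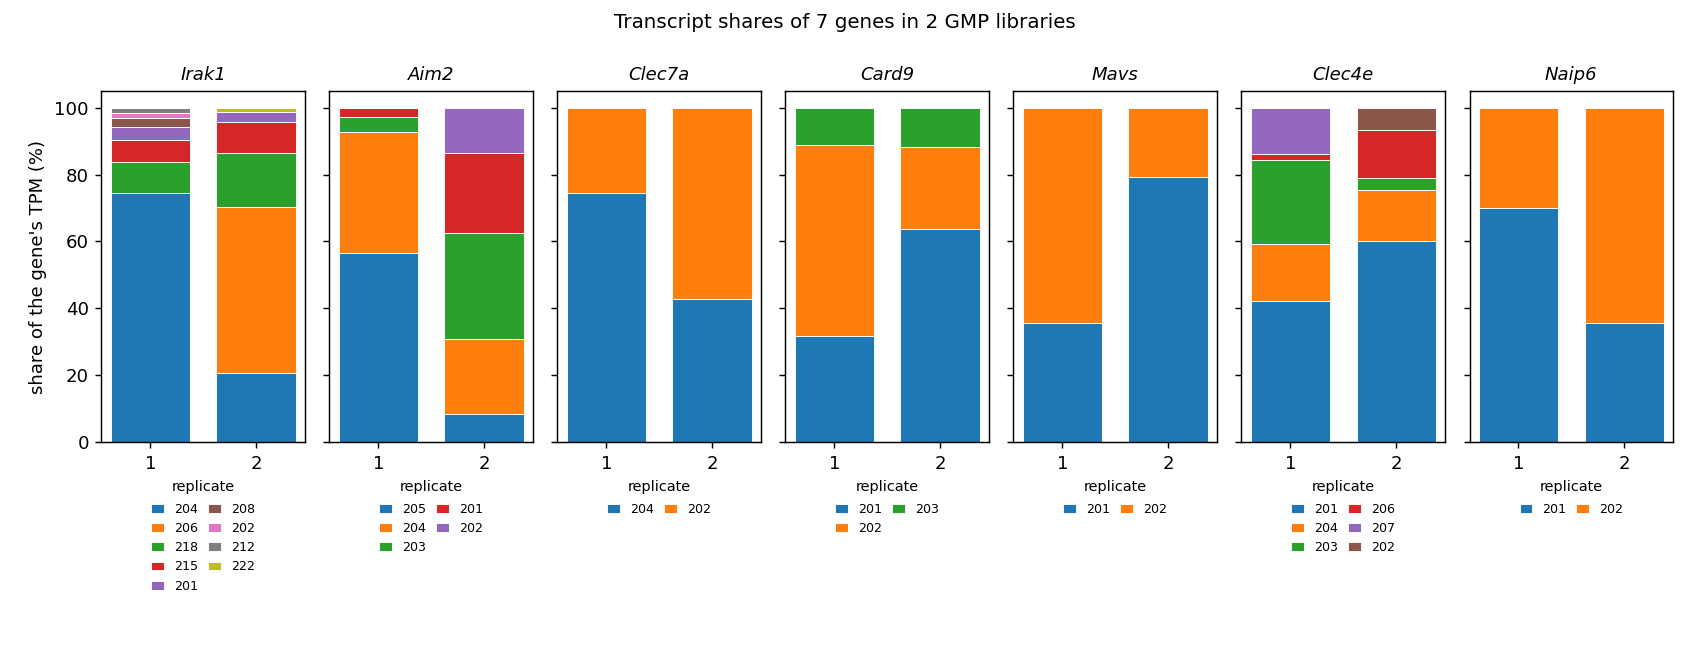
Share of the gene's TPM on each transcript, in percent, in replicate 1 and replicate 2, for the 7 members at 5 TPM or more whose leading transcript differed between the libraries or held under 60% on average. The bars of Irak1, Aim2, Mavs, Card9, Clec7a and Naip6 change their leading transcript, and Clec4e does not.

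Few members at 1 TPM or more on average were far apart in level between the libraries. Among the 31 members at 1 TPM or more on average, 1 (3.23%) was over 2-fold apart in TPM, Cd14, against 11.4% of such protein-coding genes. In CPM there were 2 (6.45%), Cd14 and Tlr8, against 9.55%. Counts this small are not read as particular to the members. Cd14 was at 0.72 TPM in replicate 1 and passed this filter through its 2.99 TPM in replicate 2. With no filter on low values, and with 0.1 TPM added to each value, 5 members were over 2-fold apart in TPM. They were Cd14, Tlr6, Tlr7, Tlr12 and Nod2. Tlr13 (0.18 and 0.46 TPM) lay at a log2 ratio of 1 with the added 0.1 TPM and was 2.56-fold apart without it. The share of all protein-coding genes was not computed without the filter. The exact 95% interval of the CPM ratio left out 1 for 23 of 31 (74.2%), close to the 73.8% of protein-coding genes, a share that holds for the libraries as a whole. Of these 23, 12 were higher in replicate 1 and 11 in replicate 2. The deposited credibility intervals of TPM were apart for 16 of 31, with 9 higher in replicate 1 and 7 in replicate 2. The share of all protein-coding genes with such intervals apart was not computed, so this count is not read as particular to the members. The median log2 ratio of TPM, replicate 2 over replicate 1, was -0.10 (range -0.79 to 1.91), beside 0.05 over all such genes. In TPM, 17 of 31 (54.8%) were higher in replicate 1, against 45.3% of such genes. The summed maturing neutrophil markers (722.76 and 315.94 TPM) and basophil and mast cell markers (130.23 and 84.69 TPM) were lower in replicate 2. Gaps were wider in single markers such as Ngp and Fcer1a. The part of these markers in the differences of single members was not tested.

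**Figure D4:**
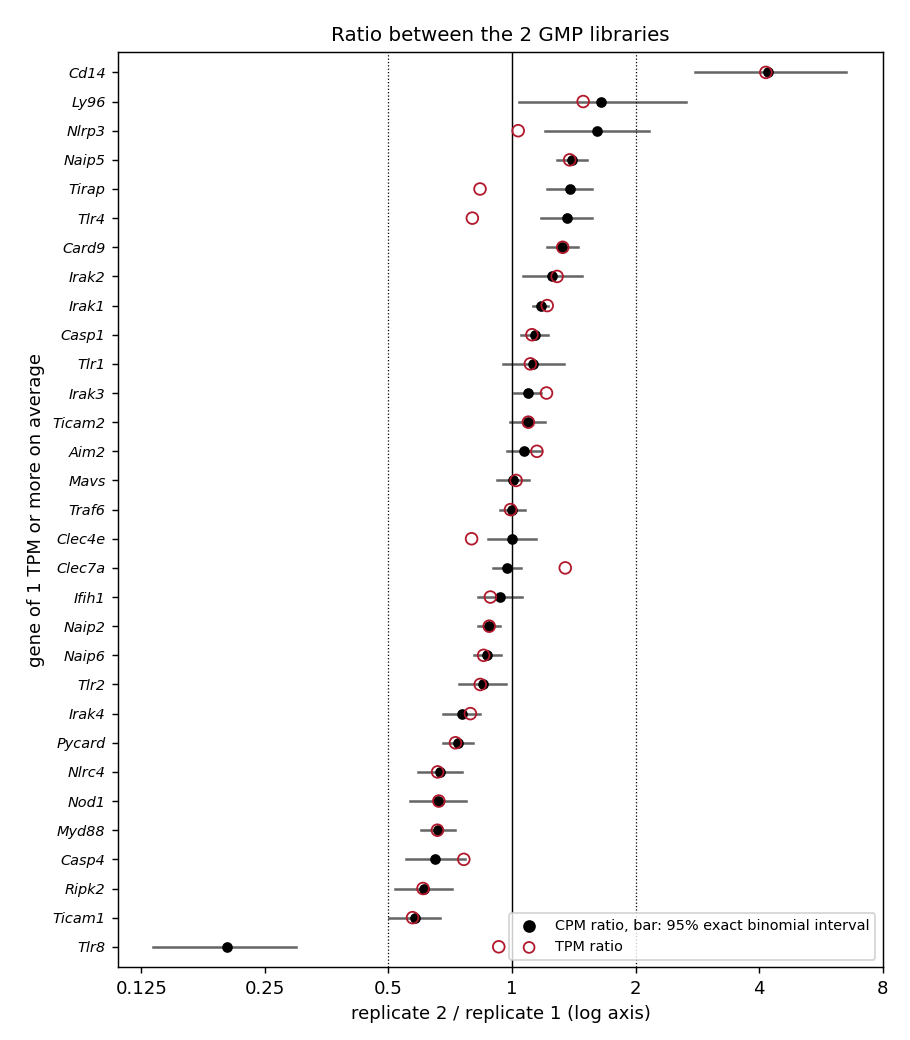
Ratio of CPM, replicate 2 over replicate 1, for each member at 1 TPM or more on average, on a logarithmic axis, with bars for the exact 95% interval of counting error and open circles for the ratio of TPM. Cd14 lies above 2-fold and Tlr8 below it, and the CPM ratios of the other 29 lie between those bounds.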

How the data were processed

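Total RNA-seq was measured in 2 GMP libraries, grouped and numbered from the labels. Transcriptome alignments on mm10 and annotation M4 were the authors' basis, per the deposited text files. The sources used here name neither the aligner nor the quantification tool, and do not state the use of strand. The authors deposited, for each gene, an expected count (an estimated read count that need not be whole), TPM, FPKM, a posterior standard deviation of the count (used as a score) and TPM credibility bounds whose level is not stated. The authors deposited transcript shares as percent of a gene's TPM.

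Symbols were taken from GENCODE M21 for GRCm38, by Ensembl identifier without version, and all 40 members matched. The members, partner lists and marker lists were chosen with earlier results of these data known. Of the members, each at 1 TPM or more on average is given with both libraries' values. Of each partner list the 3 highest and the genes with 0 counts are named, and a few others were added after their values were seen.

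CPM is the expected count over the library's total. A ratio of CPM has an exact 95% interval from the 2 counts, rounded to whole numbers, and 3 counts is the floor for a count of 0 (0.0741 CPM in replicate 1 and 0.0841 in replicate 2). A fold in TPM used log2(TPM + 0.1). Shared sequence was counted over 50-base windows of M21 transcripts, and coding sequences were aligned with Biopython 1.88. Python 3.11.15, pandas 2.3.3, scipy 1.17.1, matplotlib 3.10.9 and R 4.3.3 were used, with edgeR 4.0.16 and DESeq2 1.42.0 for scaling factors alone. The ratio and interval code was tested on simulated data. Alternatives were FPKM, CPM, TPM rescaled to protein-coding genes, other thresholds and pseudocounts, scaling factors, and each library left out.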

Additional observations from a re-analysis of the deposited data

How the results depend on the processing

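The count of members at 1 TPM or more in both libraries, 30, stayed between 28 and 34 under 0.5 TPM, 2 TPM, 1 FPKM, 1 CPM, rescaling to protein-coding genes, the mean of both libraries and each library alone. Medians depend on the unit. In FPKM they were 3.98 for the members, 2.27 for the sensors and 9.24 for the downstream members. In TPM rescaled to protein-coding genes they were 11.1, 6.30 and 25.7. In TPM as deposited, the median over members at 1 TPM or more on average alone was 8.30. With each library left out, the median ran from 4.31 to 6.19 for the members, from 2.59 to 2.99 for the sensors and from 12.6 to 12.8 for the downstream members. Downstream members stood above sensors in each. The count of members over 2-fold apart, 1, became 5 with no filter on low values and 0 at 5 TPM or more. It became 2 in CPM from expected counts (added after seeing the data), with edgeR TMM factors and with DESeq2 size factors, and the cause was not tested beyond the effective lengths of Tlr8. The split into sensors and downstream members, with its alternatives, was also added after seeing the data. No paired analysis was possible because there is only 1 group. Members with under 50 counts, such as Ly96, have the widest counting error.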
